A study of Mus musculus with 4 samples.

Results

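The 9 genes described here move lipid into, through and out of myeloid cells, and they were taken by name as the rows whose gene symbol is *Apoe*, *Apoc2*, *Cd36*, *Abca1*, *Abcg1*, *Lpl*, *Pparg*, *Nr1h3* or *Plin2*, 9 of 23995 symbols in the expression table. All 9 were found, and all 9 had a level of at least 1 FPKM (fragments scaled by transcript length and library size) in at least 1 library, the minimum used here to count a gene as expressed. Macrophages and monocytes take up fatty acids and oxidized lipoproteins through the scavenger receptor CD36, and lipoprotein lipase frees fatty acids from triglyceride-rich lipoproteins with apolipoprotein C-II as its cofactor. Surplus cholesterol leaves the cell through the transporters ABCA1 and ABCG1 to acceptors that include apolipoprotein E, and what stays is stored in droplets coated by perilipin 2. The nuclear receptors PPARγ (encoded by *Pparg*) and LXRα (encoded by *Nr1h3*) sense fatty acid and sterol derivatives and are known activators of many of these genes in macrophages.

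Blood Ly6Chi and Ly6Clo monocytes, the classical and the patrolling subset, were sorted from *Rbpj* fl/fl *Lyz2* cre/cre mice (RBP-J-deficient) and from *Rbpj* +/+ *Lyz2* cre/cre mice (control). RBP-J is the DNA-binding partner of the Notch receptors. Both genotypes carry Cre in place of both *Lyz2* alleles, although the control libraries are titled WT, and the driver is active in other myeloid cells as well as monocytes. Each genotype and subset gave 1 library, 4 in all, so no difference below has a replicate check, no test was made, and folds compare single libraries. *Rbpj* stood at 8.30 FPKM in control and 2.43 in RBP-J-deficient Ly6Clo monocytes, and at 14.4 and 2.85 in the Ly6Chi pair, lower in both libraries labelled deficient. Between 8985 and 9394 genes reached 1 FPKM in a library. *Actb* was listed at 0 FPKM in both RBP-J-deficient libraries, which for such a gene is a failed estimate. None of the 9 genes was listed at 0.

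Upstream sequence from RefSeq was at hand for 7 of the 9 genes (all but *Abcg1* and *Lpl*), in 12 promoter windows of 250 bases before and 50 after an annotated start. The core letters of the RBP-J motif, TGGGAA, were searched on both strands, together with AGGTCA, the letters of one nuclear receptor site as bound by PPAR and LXR dimers, a search added after the data had been seen. TGGGAA was in 8397 of 32851 promoter windows of all genes (25.6%) and in 6 of the 12 windows of these genes, those of *Apoe*, *Cd36*, *Nr1h3*, *Plin2* and *Pparg*. AGGTCA was in 5340 of 32851 windows (16.3%) and in 5 of the 12, those of *Apoc2*, *Cd36*, *Plin2* and *Pparg*. The 2 windows of *Nr1h3* overlap and hold the same TGGGAA letters. A match only says that the letters are there. Upstream parts of 4 windows are printed because they hold TGGGAA before genes that differed in opposite ways or hardly at all between the genotypes. They are given 5′ to 3′ along the gene on GRCm38.p6, with both motifs in capitals (TTCCCA and TGACCT are the other strand).
Cd36, minus strand, chr5:17835897-17836146: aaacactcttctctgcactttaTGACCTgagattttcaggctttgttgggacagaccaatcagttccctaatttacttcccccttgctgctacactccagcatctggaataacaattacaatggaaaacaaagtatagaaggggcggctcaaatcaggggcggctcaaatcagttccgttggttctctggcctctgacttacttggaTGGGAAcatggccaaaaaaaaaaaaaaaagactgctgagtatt
Pparg, start furthest downstream, plus strand, chr6:115421816-115422065: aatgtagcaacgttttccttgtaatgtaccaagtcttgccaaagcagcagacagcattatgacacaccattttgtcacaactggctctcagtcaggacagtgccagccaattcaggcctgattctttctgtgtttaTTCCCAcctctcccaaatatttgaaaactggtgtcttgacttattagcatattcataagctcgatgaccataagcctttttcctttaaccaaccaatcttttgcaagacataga
Nr1h3, first start, minus strand, chr2:91195117-91195366: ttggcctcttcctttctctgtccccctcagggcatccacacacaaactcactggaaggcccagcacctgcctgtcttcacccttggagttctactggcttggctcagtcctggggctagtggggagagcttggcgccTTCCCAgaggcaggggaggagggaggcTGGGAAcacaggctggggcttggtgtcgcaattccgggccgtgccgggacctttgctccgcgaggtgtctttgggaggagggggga
Plin2, minus strand, chr4:86670060-86670309: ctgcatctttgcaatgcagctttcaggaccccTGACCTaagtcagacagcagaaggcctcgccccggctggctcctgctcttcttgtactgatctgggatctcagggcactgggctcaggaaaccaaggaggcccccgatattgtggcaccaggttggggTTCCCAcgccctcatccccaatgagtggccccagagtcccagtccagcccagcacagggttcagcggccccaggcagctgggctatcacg
In *Cd36* TGGGAA began 43 bases before the start, in *Pparg* 114 bases before it on the other strand, in *Nr1h3* at 113 and 86 bases, and in *Plin2* at 90 bases.

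*Cd36*, the fatty acid and oxidized lipoprotein receptor (chromosome 5, 17781690 to 17888959, minus strand, mm10), differed most among the 4 libraries. Its level was 425.6 FPKM in control Ly6Clo, 944.7 in RBP-J-deficient Ly6Clo, 26.9 in control Ly6Chi and 137.3 in RBP-J-deficient Ly6Chi monocytes. Both Ly6Clo libraries were above both Ly6Chi libraries, and within each subset the RBP-J-deficient library was the higher. On (FPKM + 1), the scale of every fold here, the deficient level was 2.22-fold the control level in Ly6Clo (log2 ratio 1.15) and 4.95-fold in Ly6Chi (log2 ratio 2.31). The Ly6Clo level was 15.3-fold the Ly6Chi level in control mice and 6.84-fold in RBP-J-deficient mice. In the Ly6Clo pair *Cd36* passed below 2-fold after rescaling to TPM (log2 ratio 0.85) or after removing the trend with GC content (0.65).

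**Figure D1:**
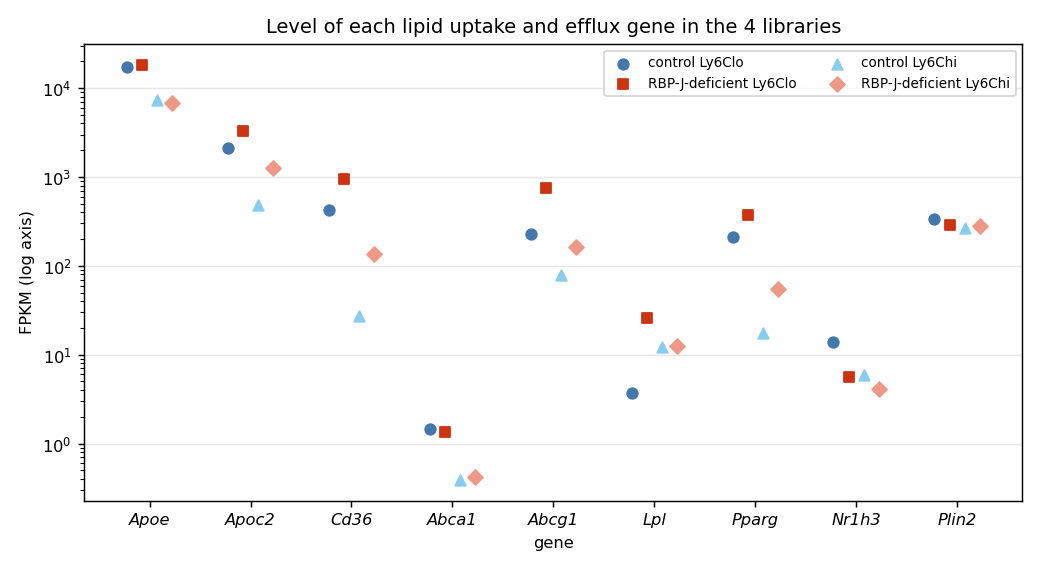
Level of the 9 genes (FPKM, log axis) in the 4 libraries, 1 point per library and no error bars since each group has 1 library. For *Apoc2*, *Cd36*, *Abcg1* and *Pparg* the order is RBP-J-deficient Ly6Clo, control Ly6Clo, RBP-J-deficient Ly6Chi, control Ly6Chi, while *Lpl* is lowest in control Ly6Clo at 3.71 FPKM and *Plin2* stays between 268.5 and 336.0 FPKM.

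*Lpl*, which encodes lipoprotein lipase (chromosome 8, 68880555 to 68906932, plus strand), was low in control Ly6Clo monocytes. It was measured at 3.71 FPKM in control Ly6Clo, 25.9 in RBP-J-deficient Ly6Clo, 12.1 in control Ly6Chi and 12.6 in RBP-J-deficient Ly6Chi monocytes. The deficient Ly6Clo library was 5.71-fold the control (log2 ratio 2.51), and in the Ly6Chi pair the log2 ratio was 0.06. The subset order turned over between genotypes. In control mice *Lpl* was lower in Ly6Clo than in Ly6Chi monocytes (log2 ratio -1.47), and in RBP-J-deficient mice it was higher (0.98). At 25.9 FPKM the deficient Ly6Clo level lay above both Ly6Chi libraries.

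The apolipoprotein genes lie in one cluster on chromosome 7 and differed in how they moved with genotype. *Apoe* (19696244 to 19699166, minus strand), whose product carries cholesterol and is a ligand of lipoprotein receptors, was measured at 17490.0 FPKM in control Ly6Clo, 18305 in RBP-J-deficient Ly6Clo, 7275 in control Ly6Chi and 6801 in RBP-J-deficient Ly6Chi monocytes. It ranked between 3 and 9 among all genes of each library and made up 2.44%, 2.07%, 1.02% and 0.890% of the summed FPKM in that order. The Ly6Clo level exceeded the Ly6Chi level in both genotypes (log2 ratios 1.27 and 1.43), with log2 ratios between genotypes of 0.07 in Ly6Clo and -0.10 in Ly6Chi.

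*Apoc2*, the lipase cofactor (19671579 to 19677941, minus strand), had 2132 FPKM in control Ly6Clo, 3289 in RBP-J-deficient Ly6Clo, 479.1 in control Ly6Chi and 1257 in RBP-J-deficient Ly6Chi monocytes. The deficient library was the higher in both subsets, by a log2 ratio of 0.63 in Ly6Clo and 1.39 in Ly6Chi. The level of *Apoe* was therefore 15.2 times that of *Apoc2* in control Ly6Chi monocytes and 5.41 times in RBP-J-deficient Ly6Chi monocytes. An annotated gene on the same strand, *Gm44805*, overlaps *Apoc2* and has no row in the table, so its reads cannot be told apart from those of *Apoc2*.

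The cholesterol exporters were expressed very unequally. *Abcg1*, which passes cholesterol to high-density lipoprotein (chromosome 17, 31057694 to 31117981, plus strand), stood at 226.5 FPKM in control Ly6Clo, 743.5 in RBP-J-deficient Ly6Clo, 79.0 in control Ly6Chi and 161.0 in RBP-J-deficient Ly6Chi monocytes. Its deficient level was 3.27-fold the control level in Ly6Clo (log2 ratio 1.71) and 2.03-fold in Ly6Chi (1.02). The latter sits at the 2-fold line, at 0.98 with a pseudocount of 5 and 0.92 in TPM. *Abca1*, which passes cholesterol to lipid-poor apolipoprotein A-I (chromosome 4, 53030789 to 53159895, minus strand), was near or below 1 FPKM in each library, at 1.46, 1.34, 0.389 and 0.420 in the same order. Its log2 ratios between genotypes were -0.07 and 0.03. Per kilobase, *Abcg1* was thus 155.7 times *Abca1* in control Ly6Clo and 554.4 times in RBP-J-deficient Ly6Clo monocytes, and 203.1 and 383.2 times in the Ly6Chi libraries.

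The nuclear receptor genes differed in opposite directions. *Pparg* (chromosome 6, 115361221 to 115490401, plus strand) had 208.4 FPKM in control Ly6Clo, 372.8 in RBP-J-deficient Ly6Clo, 17.6 in control Ly6Chi and 54.3 in RBP-J-deficient Ly6Chi monocytes. The deficient level was 1.78-fold the control level in Ly6Clo (log2 ratio 0.84) and 2.97-fold in Ly6Chi (1.57), and the Ly6Clo level was 11.2-fold the Ly6Chi level in control mice and 6.76-fold in RBP-J-deficient mice. *Nr1h3* (chromosome 2, 91184061 to 91195116, minus strand) was measured at 14.0 FPKM in control Ly6Clo, 5.60 in RBP-J-deficient Ly6Clo, 5.92 in control Ly6Chi and 4.13 in RBP-J-deficient Ly6Chi monocytes. It was highest in control Ly6Clo monocytes and lower in the deficient library of each subset, with log2 ratios of -1.18 in Ly6Clo and -0.43 in Ly6Chi. The Ly6Clo difference stayed below 0 but within 2-fold with a pseudocount of 5 (-0.84) or after the GC correction (-0.79). *Pparg* overlaps the antisense gene *Gm44079*, *Nr1h3* overlaps *Gm13783* on its own strand and *Gm23390* on the other, *Abcg1* overlaps the ribosomal RNA gene *Gm25447*, and strand use in the counting is not given in the sources used here.

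*Plin2*, the droplet coat gene (chromosome 4, 86656565 to 86670059, minus strand), was at 336.0 FPKM in control Ly6Clo, 289.7 in RBP-J-deficient Ly6Clo, 268.5 in control Ly6Chi and 283.7 in RBP-J-deficient Ly6Chi monocytes. Its level spanned 0.32 on the log2 scale over the 4 libraries, the narrowest span of the 9 genes, against 5.08 for *Cd36* and 4.33 for *Pparg*.

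Counted together, 3 of the 9 genes (*Cd36*, *Abcg1* and *Lpl*) were at least 2-fold higher in RBP-J-deficient than in control Ly6Clo monocytes, where 919 of 10240 expressed genes were (8.97%). Only *Nr1h3* was at least 2-fold lower there, against 11.1% of expressed genes. In Ly6Chi monocytes 4 genes (*Apoc2*, *Cd36*, *Abcg1* and *Pparg*) were at least 2-fold higher, against 2.65% of expressed genes, and 0 were at least 2-fold lower, against 4.56%. *Cd36* and *Abcg1* were among 74 expressed genes at least 2-fold higher in the deficient library of both subsets. At the fold of 5.7 used in the study, *Lpl* was higher in RBP-J-deficient Ly6Clo monocytes, as were 0.273% of expressed genes. The study also set a p-value condition, which was not applied here. The log2 ratio of *Lpl*, 2.51, lies at that threshold and ran from 1.83 with a pseudocount of 5 to 2.77 with one of 0.1. It fell below the threshold in TPM (2.29) and after the GC correction (2.15). The median log2 ratio of the 9 genes was 0.63 in Ly6Clo and 0.08 in Ly6Chi monocytes, against 0.02 and 0.00 over all expressed genes.

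Between the subsets, 6 of the 9 genes (*Apoe*, *Apoc2*, *Cd36*, *Abcg1*, *Pparg* and *Nr1h3*) were at least 2-fold higher in Ly6Clo than in Ly6Chi monocytes of control mice, against 5.21% of expressed genes, and *Lpl* was at least 2-fold lower, against 7.75%. In RBP-J-deficient mice 5 genes (*Apoe*, *Apoc2*, *Cd36*, *Abcg1* and *Pparg*) were at least 2-fold higher in Ly6Clo monocytes, against 8.41%, and 0 were lower by that much, against 10.6%. The genotype and subset comparisons share libraries, so these counts do not stand alone from one another. For *Apoc2*, *Cd36* and *Pparg* the subset difference was smaller in RBP-J-deficient mice, and for *Abcg1* it was larger (2.84-fold in the controls and 4.60-fold in the deficient mice).

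**Figure D2:**
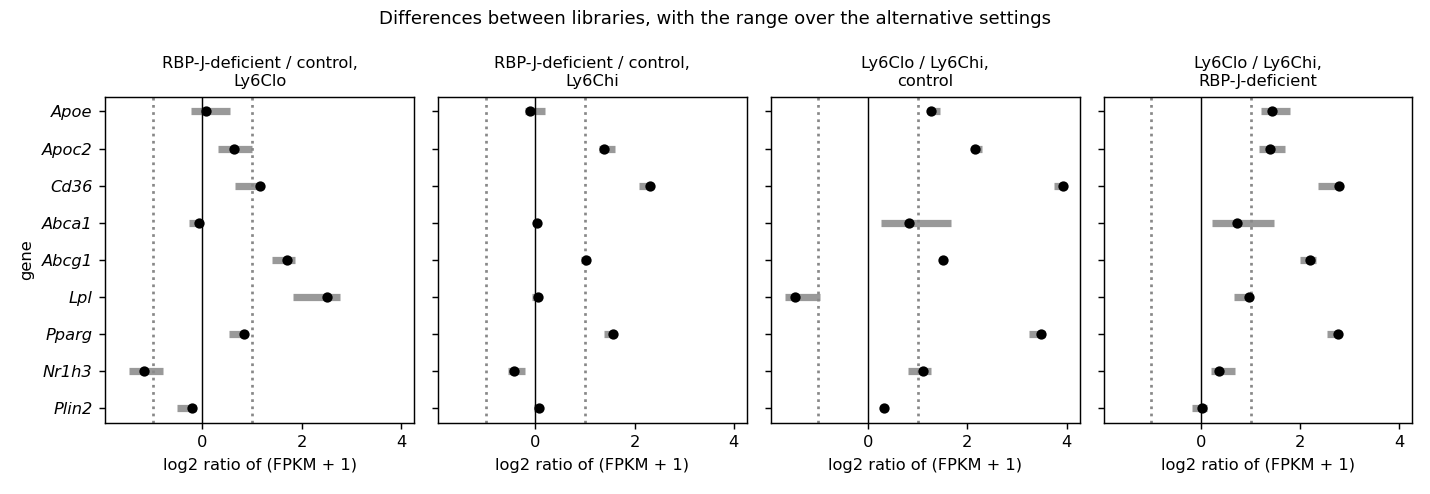
Log2 ratio of (FPKM + 1) of each gene (black points) in the genotype comparison of each subset and the subset comparison of each genotype, with grey bars for the range over the alternative settings and dotted lines at 2-fold. The bars are not errors between replicates. *Lpl* stands apart in the Ly6Clo genotype comparison at 2.51 and *Cd36* in the Ly6Chi one at 2.31.

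Both genotype comparisons moved with the GC content of the transcripts. Expressed genes with a GC content from 36% to 42% had a median log2 ratio of 0.37 in Ly6Clo and 0.17 in Ly6Chi monocytes, and those from 56% to 62% had -0.40 and -0.26. Among the 9 genes *Cd36* (38.4% GC) and *Lpl* (43.5%) lie at the low side, and *Apoe* (59.5%), *Nr1h3* (56.8%) and *Apoc2* (56.5%) at the high side. With the trend subtracted, the Ly6Clo log2 ratio was 2.15 for *Lpl*, 1.85 for *Abcg1*, 1.002 for *Apoc2*, 0.77 for *Pparg*, 0.65 for *Cd36* and 0.56 for *Apoe*. In Ly6Chi monocytes it was 2.096 for *Cd36*, 1.60 for *Apoc2*, 1.57 for *Pparg* and 1.09 for *Abcg1*. The 2-fold call in the Ly6Clo pair thus passed from *Cd36* to *Apoc2*, and the Ly6Chi calls were the same 4 genes.

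**Figure D3:**
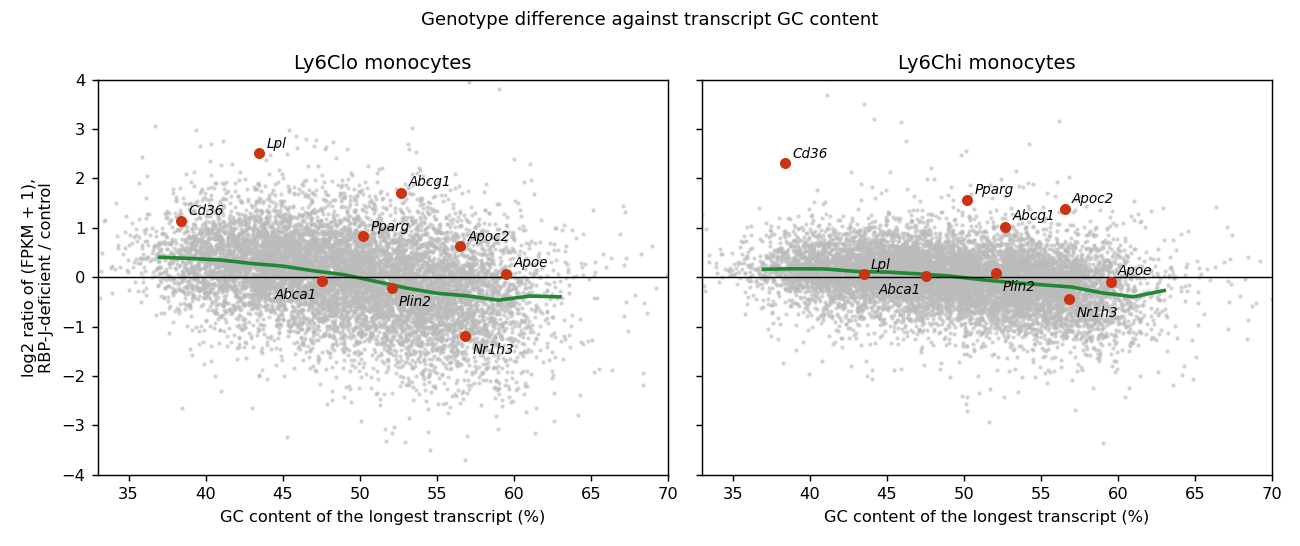
Genotype difference, as the log2 ratio of (FPKM + 1) with the control as denominator, against the GC content of the longest transcript (percent) for 9722 expressed genes in each subset, with 20 genes outside the axes, the 9 genes in red and the median per step of GC content in green. The green line falls from low to high GC content in both subsets, and *Cd36*, *Pparg*, *Abcg1* and *Apoc2* lie above it in both.

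Genes with the most similar pattern were found by the distance between profiles of log2(FPKM + 1) over the 4 libraries, each centred on its own mean. The search covered 7258 genes that reached 5 FPKM in at least 1 library. The nearest to *Cd36* was *Slamf9*, a SLAM family receptor gene, at a distance of 0.39, with 113.4 FPKM in control Ly6Clo, 306.4 in RBP-J-deficient Ly6Clo, 7.77 in control Ly6Chi and 31.2 in RBP-J-deficient Ly6Chi monocytes. *Fabp4*, the fatty acid binding protein that PPARγ is known to activate, came next at 0.47, with 234.6, 343.0, 13.8 and 63.7 FPKM in that order, and *Pparg* itself followed at 0.61. These genes share the order of the libraries and the steep rise from control Ly6Chi to the Ly6Clo libraries.

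*Abcg1* was nearest to *Ppm1h* (0.08), *Birc6* (0.15) and *Thbd* (0.19), the last of which encodes the anticoagulant receptor thrombomodulin. *Lpl* was nearest to *Ddhd2*, a phospholipase gene (0.37), and *Clec4d*, a C-type lectin receptor gene (0.39). *Pparg* was nearest to *Bcl2a1d*, *Bcl2a1b* and *Bcl2a1a* at 0.16 to 0.35, near-identical copies of one survival gene whose separate levels are uncertain. *Nr1h3* was nearest to *Pou2f2* (0.09), a transcription factor gene that is also on the Ly6Clo marker list used below. *Apoe* was nearest to *Laptm4b* (0.20) and *Apoc2* to *1700007L15Rik* (0.09). With 4 libraries, close patterns are common for genes of modest span.

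**Figure D4:**
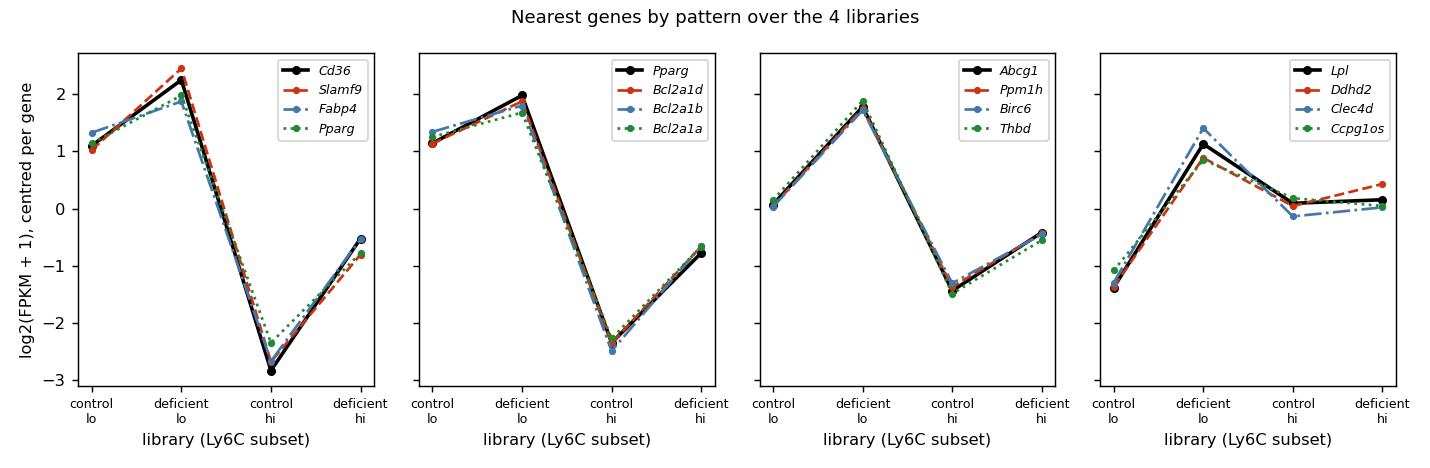
Profiles of *Cd36*, *Pparg*, *Abcg1* and *Lpl* (black) and of the 3 genes nearest to each (colours), as log2(FPKM + 1) centred on the mean of each gene over the 4 libraries, 1 library per point. *Cd36* and *Pparg* profiles peak in RBP-J-deficient Ly6Clo and are lowest in control Ly6Chi, whereas *Lpl* and its neighbours are lowest in control Ly6Clo.

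Other genes of the same pathways were counted from lists. Over all expressed genes, as given above, 8.97% were at least 2-fold higher and 11.1% lower in RBP-J-deficient Ly6Clo monocytes, and 2.65% and 4.56% in Ly6Chi monocytes. The counts below are small and are to be read against these shares. Among 16 expressed genes of an LXR target and cofactor list, 2 were at least 2-fold higher and 2 lower in RBP-J-deficient Ly6Clo monocytes (median log2 ratio -0.42), near the shares over all expressed genes, and none differed by 2-fold in Ly6Chi (median -0.39). *Nr1h2*, which encodes LXRβ, went from 62.9 FPKM in control to 16.04 in RBP-J-deficient Ly6Clo monocytes and from 60.7 to 43.3 in the Ly6Chi pair. The same direction was measured for its relative *Nr1h3*. *Apoc4*, a neighbour of *Apoc2*, had the highest Ly6Clo log2 ratio on this list at 1.47. Its levels were low, at 1.17 FPKM in control and 5.01 in RBP-J-deficient Ly6Clo monocytes. In the Ly6Chi pair it went the other way, from 0.594 to 0 FPKM (log2 ratio -0.67).

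Of 12 expressed PPAR partner and target genes, 1 was at least 2-fold higher and 2 were lower in RBP-J-deficient Ly6Clo monocytes (median -0.28), and 1 was higher in Ly6Chi (median -0.14). The higher gene in Ly6Chi was *Fabp4* (log2 ratio 2.13), and the one in Ly6Clo was *Cpt1a*, the carnitine transferase that admits fatty acids to mitochondria (1.03). *Fabp5*, a relative of *Fabp4*, had a log2 ratio of -1.34 in Ly6Clo.

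Of 11 expressed genes for other scavenger and lipoprotein receptors, 1 was at least 2-fold higher and 4 were lower in RBP-J-deficient Ly6Clo monocytes (median -0.71), where 11.1% of expressed genes were lower, and 1 was lower in Ly6Chi (median -0.29). *Scarb1*, the high-density lipoprotein receptor gene of the CD36 family, went from 40.2 FPKM to 9.09 in the Ly6Clo pair and from 58.8 to 26.6 in the Ly6Chi pair, opposite to *Cd36*. *Msr1*, the class A scavenger receptor gene, had the highest Ly6Clo log2 ratio on this list at 1.09. That ratio was within 2-fold in TPM (0.80) and after the GC correction (0.59). *Msr1* was at 35.6 FPKM in control and 77.2 in RBP-J-deficient Ly6Clo monocytes but at 168.8 and 152.9 in the Ly6Chi libraries.

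Among 14 lipid transporter and fatty acid uptake genes, 2 were higher and 4 lower by 2-fold in Ly6Clo (median -0.39) and 1 was higher in Ly6Chi (median -0.27). That one gene, *Acsl4*, a fatty acid activating enzyme, carried an estimate marked as failed, and it was also 1 of the 2 higher in Ly6Clo. The other was *Fabp3*, at 0 FPKM in control and 1.95 in RBP-J-deficient Ly6Clo monocytes. Of 12 lipid droplet and cholesteryl ester genes, 0 were higher and 4 lower in Ly6Clo (median -0.70), against 11.1% of expressed genes lower, and 1 was higher and 1 lower in Ly6Chi (median -0.38). *Lipe*, hormone-sensitive lipase, had the lowest Ly6Clo log2 ratio (-2.27). *G0s2*, an inhibitor of triglyceride lipase, was higher in the RBP-J-deficient Ly6Chi library (34.5 against 13.3 FPKM) and lower in the Ly6Clo one (110.4 against 197.3).

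All 20 sterol synthesis genes were expressed, with 2 higher and 2 lower by 2-fold in Ly6Clo (median 0.24) and 0 higher and 3 lower in Ly6Chi (median 0.10). *Srebf2*, which encodes the activator of the pathway, had 11.2 FPKM in control and 2.15 in RBP-J-deficient Ly6Clo monocytes. The list medians are small beside the spread of their genes. After the GC correction, an alternative chosen after seeing the data, the scavenger receptor median in Ly6Clo was -0.98 and the transporter median was -0.07, against -0.05 over all expressed genes, while the sterol synthesis median was 0.06 in Ly6Clo and -0.02 in Ly6Chi.

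**Figure D5:**
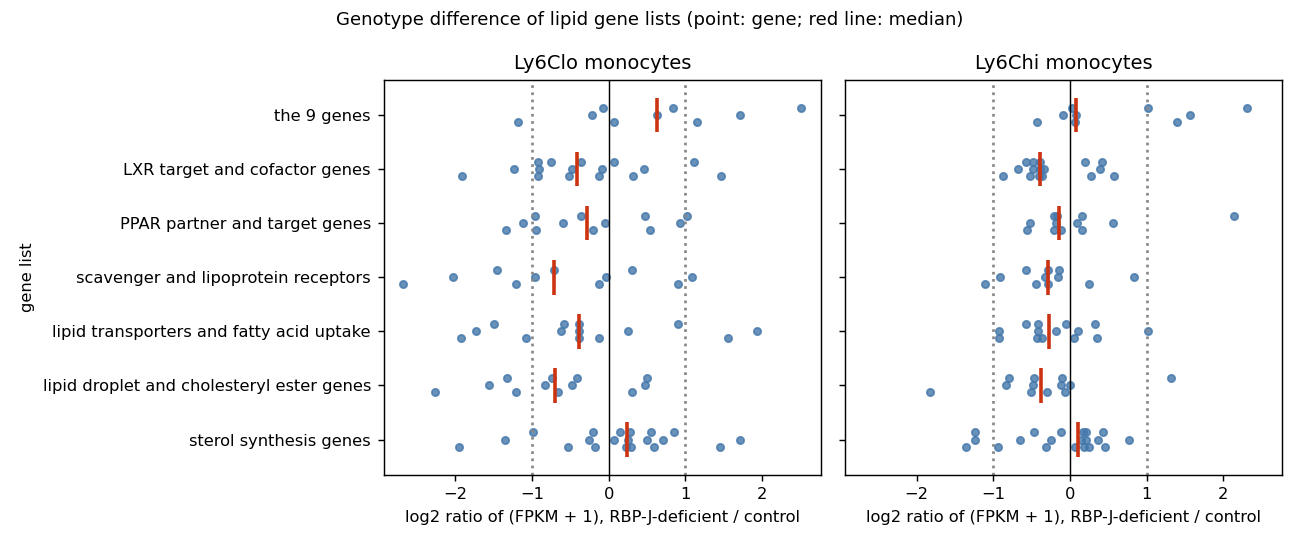
Genotype difference, as the log2 ratio of (FPKM + 1) with the control as denominator, of each expressed gene (points) on 7 lists in Ly6Clo (left) and Ly6Chi (right) monocytes, with a red line at the median of each list and dotted lines at 2-fold. The median of the 9 genes is above 0 in Ly6Clo (0.63), and those of the LXR, PPAR, scavenger receptor, transporter and droplet lists are below 0 in both subsets.

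Markers of the sorted subsets also differed between the genotypes. The summed level of 10 Ly6Chi monocyte markers was 447.1 FPKM in control and 1486 in RBP-J-deficient Ly6Clo monocytes, with 9 of 10 at least 2-fold higher, and 5969.5 and 5249 in the Ly6Chi libraries. The sum of 12 Ly6Clo markers was 4433 and 2442 FPKM in the Ly6Clo pair, with 6 of 12 at least 2-fold lower. It was 892.0 and 1283 in the Ly6Chi pair, with 3 of 12 at least 2-fold higher and 1 lower. In that pair 5 of the 12 were higher and 7 lower by any margin (median log2 ratio -0.13). Over all expressed genes, 8.97% were at least 2-fold higher and 11.1% lower in the Ly6Clo pair, and 2.65% and 4.56% in the Ly6Chi pair. Set beside the 9 genes, *Apoc2*, *Cd36*, *Abcg1*, *Lpl* and *Pparg* were higher in RBP-J-deficient Ly6Clo than in each of the other 3 libraries, a level above both control subsets. On FPKM *Apoe* was as well, by a small margin, but its Ly6Clo log2 ratio of 0.07 became -0.24 in TPM. In RBP-J-deficient Ly6Chi monocytes *Abcg1* had moved 55.6% of the way from the control Ly6Chi to the control Ly6Clo level. These shares are taken on plain FPKM and not on the log2 scale, which would give other values. *Apoc2* was at 47.1%, *Cd36* at 27.7%, *Plin2* at 22.5%, *Pparg* at 19.2% and *Abca1* at 2.94%. *Apoe* and *Nr1h3*, also higher in control Ly6Clo, were at -4.64% and -22.4%. The part of subset composition in these results was not tested, and in bulk samples a change in the cells present and a change of RNA per cell cannot be told apart.

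Markers of other cells that carry CD36 or lipid genes were counted as well. The sum of 13 platelet and megakaryocyte markers was 150.8 and 149.6 FPKM in control and RBP-J-deficient Ly6Clo monocytes and 447.5 and 369.5 in the Ly6Chi libraries. Of the 13, 0 were at least 2-fold higher in either deficient library, and 3 were lower in Ly6Clo and 2 in Ly6Chi, against the 11.1% and 4.56% of expressed genes. Their part in the *Cd36* levels was not tested. The sum of 14 macrophage markers was 179.4, 155.5, 212.6 and 154.9 FPKM in the order control Ly6Clo, RBP-J-deficient Ly6Clo, control Ly6Chi and RBP-J-deficient Ly6Chi, with *Timd4* and *Vsig4* listed at 0 in each. In that order the sums were 1583, 276.3, 359.8 and 386.9 FPKM for 6 erythroid markers, 68.9, 102.1, 26.6 and 48.2 for 8 B cell markers, and 1.37, 0.0815, 2.70 and 3.15 for 9 T and NK cell markers. They were 237.9, 162.5, 1328 and 1044 FPKM for 9 neutrophil markers, 45.9, 31.3, 197.6 and 146.7 for 7 dendritic cell markers, and 15236, 15475, 11907 and 12728.5 for 8 genes common to monocytes. Most of the neutrophil sum was *S100a8* (197.2, 126.1, 1085 and 861.4 FPKM). Of the 9 neutrophil markers, 4, 4, 4 and 3 were listed at 0 in that order. Which cells the *S100a8* reads came from was not tested. Of 7 expressed neutrophil markers, 5 were lower in the RBP-J-deficient Ly6Chi library. The other 2, *Camp* and *Ngp*, were at 5.52 and 4.87 FPKM there and at 0 in control Ly6Chi. The B cell sum and the sum of common monocyte genes were, like *Cd36*, higher in both deficient libraries and in Ly6Clo. The largest part of the common monocyte sum was *Fcer1g* (8888.5, 12099, 5250 and 6944 FPKM). Of these 8 genes, 3 were higher and 5 lower in the deficient library of each subset. Their median log2 ratios were -0.19 in Ly6Clo and -0.09 in Ly6Chi. Most of the B cell sum was *Cd79b* (41.9, 100.2, 23.7 and 43.7 FPKM). The other 3 expressed B cell markers were at least 2-fold lower in RBP-J-deficient than in control Ly6Clo monocytes, *Cd79a* at 1.13 against 9.02 FPKM, *Cd22* at 0.563 against 12.9 and *Ms4a1* at 0.0603 against 3.27.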

How the data were processed

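RNA was sequenced from 4 libraries, 1 per genotype and subset. The authors deposited FPKM values for each pair of libraries, in the layout of Cuffdiff. The submitters' processing notes name CASAVA 1.8, TopHat2 2.1.0, Cufflinks 2.2.1 and mm10, and the annotation and strand setting are not given in the sources used here. The authors' fold changes and p-values in the table were not used. Depth is unknown, so no interval is given.

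Rows sharing a symbol were summed, and 19 gene and library values that differed between pairs were set to their median. None belonged to the 9 genes. Differences are log2 ratios of (FPKM + 1), which understate changes of low genes, and a gene was called at 2-fold. Named genes are the 9, *Rbpj*, the 3 nearest in pattern, the highest and lowest gene of each pathway list per genotype comparison, and the top genes of marker lists. Others outside this rule were chosen after their values were seen, among them *Actb*, *Fabp3*, *Timd4*, *Vsig4*, *Cd79a*, *Cd22*, *Ms4a1*, *Camp* and *Ngp*. Some listed genes that this rule names are not reported here. Of 216 listed genes 213 were found. Genes and lists were chosen with earlier results of these data known. The GC correction subtracted a lowess trend (fraction 0.3) on GENCODE transcript GC content, known for 94.9% of expressed genes. Gene positions are the deposited mm10 loci, counted from 1. The ratios and the 2-fold call were run on simulated data with known fold changes. That checks the calculation only, and not how far single libraries vary. Python 3.11.15, pandas 2.3.3 and statsmodels 0.14.6 were used.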

Additional observations from a re-analysis of the deposited data

Results flagged for a closer look

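The genotype difference had opposite signs in the 2 subsets for 3 of the 9 genes, each from single libraries, and the difference between subsets was not tested. The log2 ratios in Ly6Clo and Ly6Chi monocytes were 0.066 and -0.10 for *Apoe*, -0.069 and 0.032 for *Abca1*, and -0.21 and 0.079 for *Plin2*, all small. The subset difference had opposite signs in the 2 genotypes for *Lpl*, with a log2 ratio of Ly6Clo over Ly6Chi of -1.47 in the controls and 0.98 in the deficient mice, also not tested.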

How the results depend on the processing

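No paired analysis was possible because each group has 1 library and the labels give no replicate numbers. Of 213 values of the 36 log2 ratios of the 9 genes under an alternative setting, 192 kept their sign and their side of the 2-fold line, 9 changed sign, all of them ratios near 0, and 12 crossed the 2-fold line. The cause of these moves was not tested. Of the 9 genes, 1 was higher at the study's folds in Ly6Clo and 0 in Ly6Chi, 0 were lower in Ly6Clo with a pseudocount of 5, after the GC correction or at the study's folds, and 0 were lower in Ly6Clo than in Ly6Chi of control mice with a pseudocount of 5. Over all genes, those higher in the Ly6Clo genotype comparison numbered 511 with a pseudocount of 5, 537 in TPM and 28 at the study's folds, and those lower 1747 with a pseudocount of 0.1, 458 with 5, 1813 in TPM and 69 at the study's folds. In Ly6Chi 592, 73, 172 and 16 were higher with a pseudocount of 0.1, with 5, with at least 1 FPKM in both libraries and at the study's folds, and 933, 101, 305 and 16 were lower, with 708 lower in TPM. Between the subsets of control mice 877 (0.1) and 242 (5) were higher, and 365 (5) and 523 (1 FPKM in both) lower. In RBP-J-deficient mice 412 (5) were higher, and 1656 (0.1), 400 (5) and 707 (1 FPKM in both) lower. TPM shifted log2 ratios by -0.30 in the Ly6Clo and -0.10 in the Ly6Chi genotype comparison. Unknown depth limits *Abca1*, *Lpl* and *Nr1h3* most, since their levels are low.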
